A study of Arabidopsis thaliana with 12 samples.

Results

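The light response of the Arabidopsis thaliana line 35S:miR396a was described from the 4984 genes that the authors listed between its dark and its illuminated seedlings, out of 11417 genes listed in any comparison of the study. Every listed gene was taken, and its direction was read from the ratio of the group means in light over dark. The groups were miR396_D, seedlings of 35S:miR396a kept in the dark, and miR396_L, seedlings of the same line given 3 h of light. Both groups were Columbia plants grown on MS medium with 1% sucrose for 4 days in darkness, and both carry the transgene. Col-0 seedlings without the transgene, dark or illuminated in the same way, formed the other 2 groups. Each group had 3 libraries that the labels call biological replicates. Whether the line stands for 1 or more transformants, and the quality and strength of the light, are not stated in the labels. The labels name hypocotyl as the tissue.

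Expression was given as FPKM, fragments scaled by transcript length and library depth, and each value is the authors' mean over a group. The spread between replicates could therefore not be set beside any difference. A gene is called listed, or is said to have risen or fallen, where the authors' table holds it, which requires at least a 2-fold change and a q-value of at most 0.001. The pooled depth behind the means was about 119000000 fragments in the dark and 127000000 in the light. Fewer cells of a type in bulk tissue and less RNA per cell cannot be told apart. Positions and sequences are those of the RefSeq annotation of TAIR10.1.

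A seedling that germinates in darkness stretches its hypocotyl on stored reserves and keeps its plastids undeveloped. Light, read by phytochromes and cryptochromes, removes the PIF transcription factors that drive this growth, and releases HY5, which switches on photosynthetic and protective genes. Auxin and brassinosteroid act with the PIFs in elongation. MicroRNA miR396 pairs with messages of most growth-regulating factors, GRFs, which promote cell division in young organs, and lowers them. The 35S promoter of cauliflower mosaic virus drives the precursor of miR396a in most tissues.

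The mature microRNA defines the line, so it is shown first with its seed, bases 2 to 8, in capitals, followed by the sites that pair with it in 3 GRF messages, in lower case. The second form, miR396b, differs from miR396a in its last letter.
ath-miR396a-5p (chr2:4142443-4142463, minus strand): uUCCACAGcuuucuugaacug
ath-miR396b-5p (chr5:13611808-13611828, plus strand): uUCCACAGcuuucuugaacuu
GRF1 site (chr2:9729945-9729965, plus strand, exon 3): cgttcaagaaagcctgtggaa
GRF7 site (chr5:21795146-21795166, plus strand, exon 2): cgttcaagaaagcatgtggaa
GRF9 site (chr2:18746293-18746313, plus strand, exon 2): cgttcaagaaagcttgtggaa

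Each of these coding sites, and those of GRF2, GRF3, GRF4 and GRF8, lay 2 letters from the perfect complement of miR396a. GRF6 has no such site, and its closest stretch was 6 letters away. GRF7 fell from 3.21 to 0.23 FPKM after light, and GRF2 from 3.78 to 0.67. GRF1 fell from 5.99 to 2.49 FPKM, and GRF6, without a site, from 0.5 to 0.13. The helix-loop-helix factor bHLH74, a target whose closest stretch in the first annotated transcript lay 5 letters away, fell from 3.61 to 1.58. Other GRFs with a site were not listed: GRF3 had 7.06 and 4.00 FPKM, GRF4 0.506 and 0.323, GRF9 0.643 and 0.596, and GRF8 0.173 and 0.22. Of the 15 genes of the miR396 module 5 were listed lower after light and none higher, so messages with and without a site were among those that fell. In Col-0 GRF7 fell from 24.1 to 0.186 FPKM and GRF6 from 4.35 to 1.14. GRF2 (9.08 and 4.70), GRF1 (9.38 and 7.25) and bHLH74 (17.5 and 9.56) were not listed there.

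Of all 27444 annotated nuclear protein-coding genes, 8.4% were listed higher and 9.43% lower after light in 35S:miR396a. In Col-0 these shares were 6.99% and 10.7%. Of the 7756 genes with a mean in both groups of the line, known from any table, 64.3% were listed, 30.3% higher and 33.9% lower. Over listed genes of every kind, 2352 were higher and 2632 lower. With a larger mean of at least 5 FPKM the order turned, with 1390 higher and 1312 lower, as it did at 4-fold (1048 and 707) and with 1 FPKM added to both means (1504 and 1302). The median log2 ratio was 1.76 among genes that rose and −1.45 among those that fell. Among genes with both means above 0, at least 16-fold rises numbered 243 and at least 16-fold falls 62. At 32-fold there were 115 rises and 15 falls. Of the 420 genes whose larger mean lay between 100 and 1000 FPKM, 271 rose and 149 fell, while of the 1206 genes between 1 and 5 FPKM, 468 rose and 738 fell. Over those 7756 genes the median log2 ratio of FPKM + 1 was −0.05, with quartiles of −0.74 and 0.67. The list medians given below are on this same scale and stand beside that value. It was −0.11 in Col-0, over 7778 genes.

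**Figure D1:**
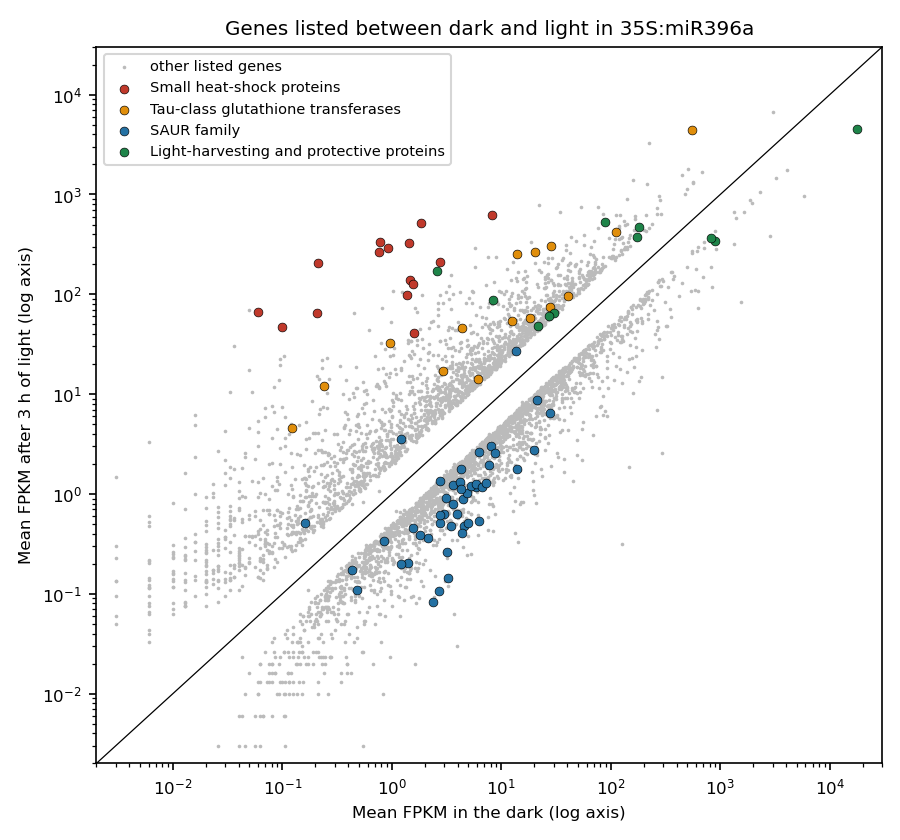
Mean FPKM in the dark (x axis, log) and after 3 h of light (y axis, log) of the 4861 genes listed in 35S:miR396a with both means above 0; the line marks equal values. Small heat-shock proteins (red) lie farthest above the line, tau-class glutathione transferases (orange) lie above it, most SAUR genes (blue) lie below it, and light-harvesting and protective genes (green) lie on both sides.

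**Figure D2:**
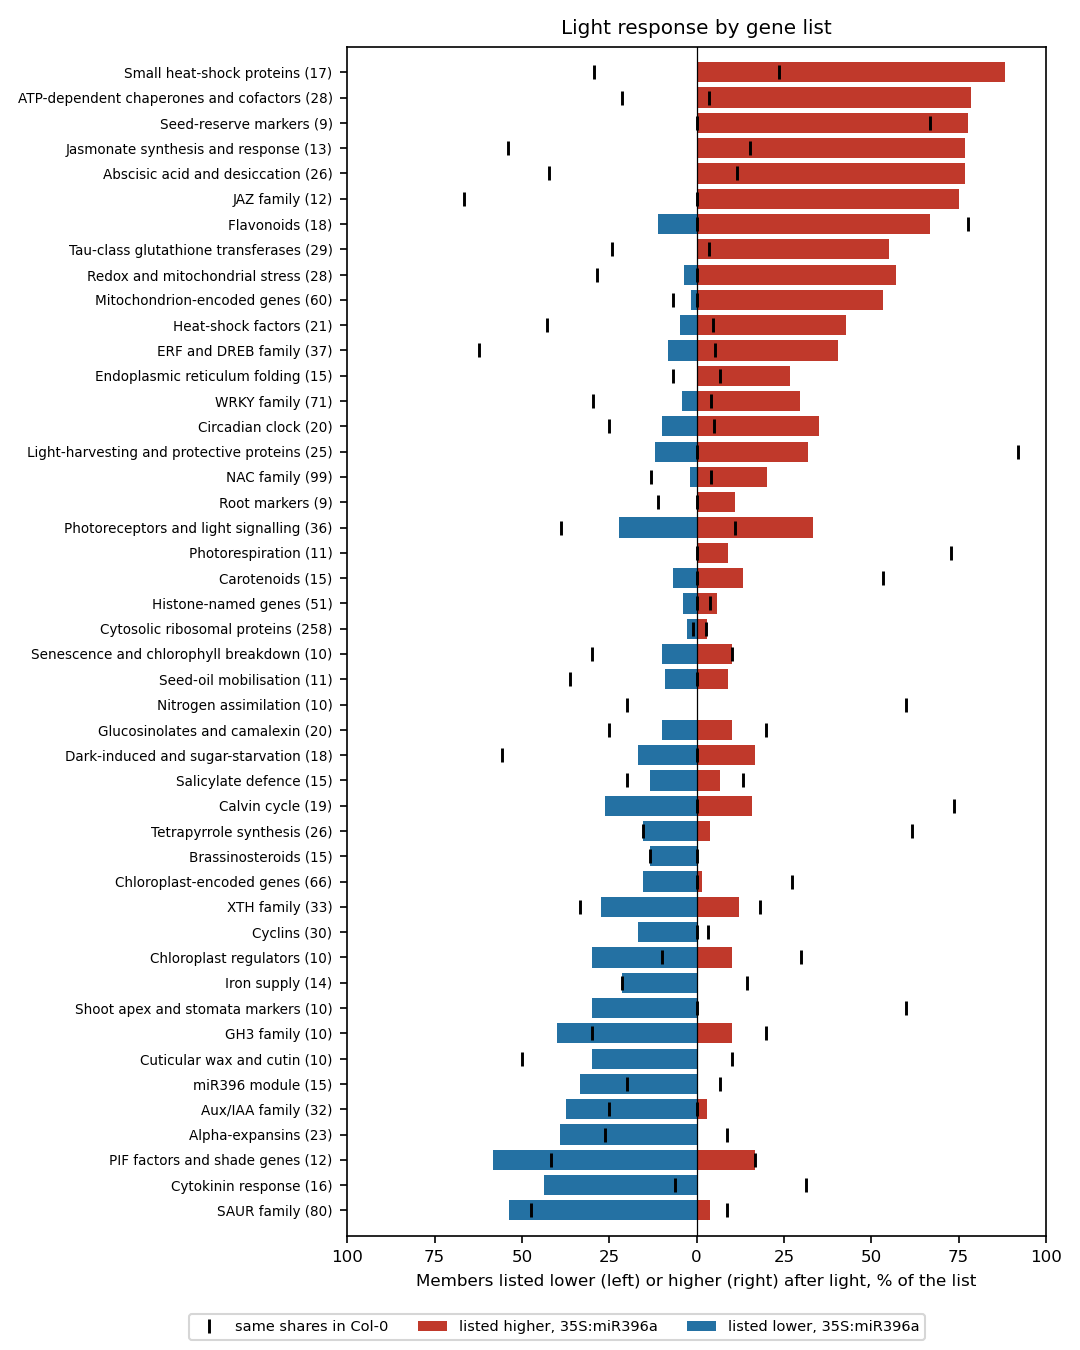
Share of each gene list that was listed higher (red, right) or lower (blue, left) after light in 35S:miR396a, in percent of all members, whose number stands in brackets. Black ticks give the same shares in Col-0; small heat-shock proteins were 88.2% higher in 35S:miR396a, and light-harvesting and protective proteins 32%.

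The small heat-shock proteins had the highest median log2 ratio of the 46 lists. These proteins hold damaged proteins in a soluble state until other chaperones refold them. Of 17 members 15 rose and none fell, with a list median of 5.92. In the cytosol HSP17.6A (AT5G12030) went from 0.783 to 332 FPKM, HSP17.4 (AT3G46230) from 1.84 to 520 and HSP17.6B from 8.23 to 627. The organelle forms moved as far. HSP23.6 of mitochondria went from 0.21 to 207 FPKM, a 985-fold difference, HSP26.5 from 0.06 to 66.7, and HSP22.0, which enters the endoplasmic reticulum, from 1.37 to 99.3. The exception was HSP15.4, with 8.29 FPKM in the dark and 6.68 in the light, and HSP14.7 had no pair of values. The summed level of the members went from 31.6 to 3369 FPKM. In Col-0 4 members were listed higher and 5 lower after light, with a median of 0.02, and HSP23.6 stood at 0.293 and 0.446 FPKM. The difference between the genotypes' light responses was not tested, here or for any list, because only group means are given.

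Heat-shock factors are the transcription factors that switch on these chaperones. Of 21 members 9 rose and 1, HSFA5, fell, from 8.17 to 3.92 FPKM. HSFA2, which prolongs the heat response and is itself a target of other factors, went from 1.03 to 108.6 FPKM, a 105-fold rise. HSFB1 and HSFB2A, which repress as well as assist heat genes, went from 26.0 to 98.4 and from 9.41 to 53.1. HSFA6A and HSFA6B, linked to abscisic acid, rose from 1.57 to 14.2 and from 1.71 to 14.5. No HSFA1 gene, whose proteins start the response, was listed. In Col-0 9 factors were listed lower and 1 higher, and HSFA2 went the other way, from 21.0 to 2.60 FPKM. Before light, 9 factors were listed below Col-0 in the transgenic line. HSFA2 after light in 35S:miR396a, at 108.6 FPKM, stood above both of its Col-0 levels, and 3 of the 9 factors that rose were also listed above dark Col-0 after light.

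Chaperones that spend ATP, and their cofactors, rose too, with 22 of 28 listed higher, none lower and a median of 2.36. HSP101, which pulls aggregated proteins apart, went from 5.80 to 189 FPKM. HSP70-4 went from 21.98 to 777 FPKM, HSP90.1 from 5.73 to 294 and FES1A, a factor that keeps HSP70 from being degraded, from 7.53 to 239. The members abundant in the dark moved less. HSC70-3 went from 112 to 624 FPKM, and HSP90.2 and HSP90.3, near-identical genes whose reads may be split uncertainly, from 130.5 to 327 and from 131 to 284. Chaperones of other compartments took part. HSP60 and CPN10 of mitochondria went from 30.7 to 64.5 and from 61.8 to 143, and the plastid CLPB3 from 8.56 to 29.7. In Col-0 1 member was listed higher and 6 lower.

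In the endoplasmic reticulum, where secreted proteins fold, 4 of 15 members rose and none fell, beside 8.4% and 9.43% of all nuclear genes. BIP3, the HSP70 form induced by unfolded proteins, went from 0.163 to 5.24 FPKM and ERDJ3A, a co-chaperone, from 1.69 to 35.2. BZIP60, a transcription factor of the unfolded protein response, went from 45.2 to 126.5, and BIP2 from 52.9 to 116. In Col-0 BIP3 rose too, from 0.28 to 2.90 FPKM. BZIP60 fell there, from 76.5 to 30.1, and ERDJ3A was not listed at 5.84 and 4.33. Other members had no value in both groups.

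**Figure D3:**
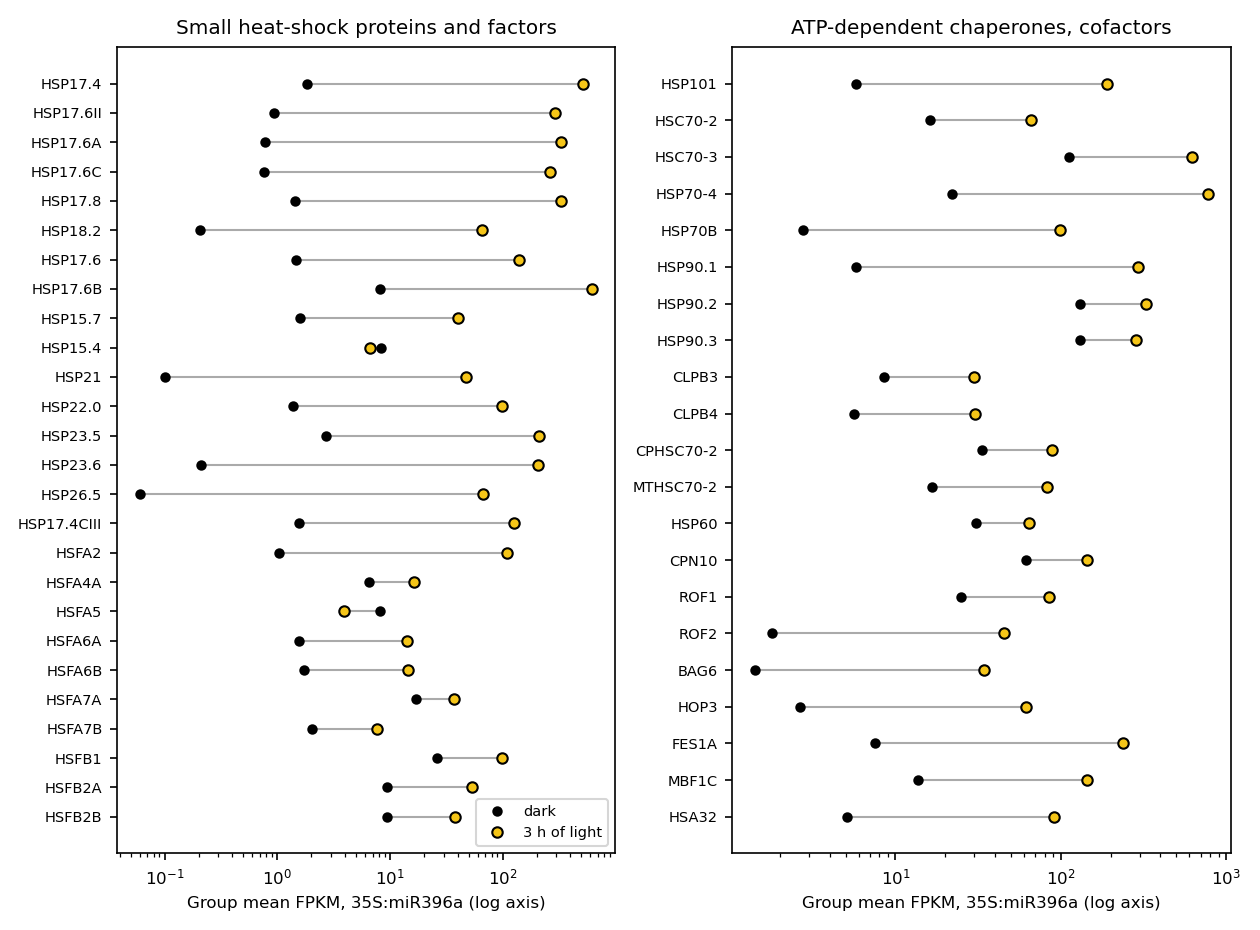
Group mean FPKM (x axis, log) in the dark (black) and after 3 h of light (yellow) in 35S:miR396a, for small heat-shock proteins and heat-shock factors (left) and ATP-dependent chaperones and cofactors (right); members without both means, or with a dark mean of 0, are left out. All but HSP15.4 and HSFA5 had the higher value in light.

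Heat-shock factors bind repeats of GAA and its reverse TTC. A strict form, GAA, any 2 bases, TTC, any 2 bases and GAA, on either strand, was searched from 250 bases before to 50 bases after each annotated gene start. It was held by 0.481% of 27443 nuclear promoters, by 1.52% of those of genes listed higher, by 0.271% of those listed lower, and by 9.01% (10 of 111) of genes that rose at least 16-fold to at least 10 FPKM. Those 10 were AT1G03070, AT1G53540 (HSP17.6C), AT1G71000, HSFA2, HSP70-4, ELIP1, HSP17.4, HOP3, DIP2 and DREB2A. Of the small heat-shock protein genes, 2 of 17 held the strict form, and of the factors 3 of 21. The bases upstream of 3 of the steepest risers, and of HSFA7A (17.1 to 37.1 FPKM), are shown as the 250 bases before the gene start, with matches in capitals.
HSP17.4 (chr3:16984868-16985117, minus strand): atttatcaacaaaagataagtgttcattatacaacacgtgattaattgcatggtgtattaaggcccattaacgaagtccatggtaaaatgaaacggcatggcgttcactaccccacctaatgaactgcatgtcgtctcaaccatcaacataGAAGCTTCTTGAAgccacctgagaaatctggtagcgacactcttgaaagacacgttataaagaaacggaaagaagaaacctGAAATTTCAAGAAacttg
HSP17.6C (chr1:19980049-19980298, plus strand): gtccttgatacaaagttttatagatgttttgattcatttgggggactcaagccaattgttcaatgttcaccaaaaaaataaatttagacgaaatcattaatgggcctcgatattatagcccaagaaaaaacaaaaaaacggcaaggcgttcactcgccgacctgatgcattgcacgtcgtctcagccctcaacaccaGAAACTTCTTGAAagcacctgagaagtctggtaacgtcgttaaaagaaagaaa
HSFA2 (chr2:11135374-11135623, plus strand): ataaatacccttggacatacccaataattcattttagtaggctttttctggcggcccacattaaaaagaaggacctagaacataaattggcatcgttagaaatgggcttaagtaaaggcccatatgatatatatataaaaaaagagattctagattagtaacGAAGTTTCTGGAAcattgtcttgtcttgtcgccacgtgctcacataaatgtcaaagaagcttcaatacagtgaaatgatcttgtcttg
HSFA7A (chr3:19264891-19265140, plus strand): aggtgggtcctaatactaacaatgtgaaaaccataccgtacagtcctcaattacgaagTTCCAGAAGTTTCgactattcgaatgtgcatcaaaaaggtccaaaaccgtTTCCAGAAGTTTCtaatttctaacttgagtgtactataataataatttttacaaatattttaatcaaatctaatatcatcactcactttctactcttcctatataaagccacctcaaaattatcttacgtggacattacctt

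Of 28 genes of redox control and of mitochondrial stress 16 were listed higher and 1, EX2, lower. AOX1A, the alternative oxidase that lets electrons bypass the cytochrome chain, went from 20.3 to 204 FPKM. Its partner NDB2, an external NADH dehydrogenase, went from 11.7 to 90.7, UPOX from 5.36 to 81.8, and NAC013, the transcription factor that carries the mitochondrial signal to the nucleus, from 4.08 to 26.9. In Col-0 NDB2 fell from 16.8 to 6.97 FPKM and the other 3 were not listed, with AOX1A at 27.3 and 29.8 and NAC013 at 6.05 and 6.94. The zinc-finger factor ZAT12 went from 22.2 to 175 FPKM and UGT74E2, which conjugates the auxin precursor indole-3-butyric acid, from 4.18 to 106.5. The superoxide dismutases CSD1, CSD2 and FSD1 were not listed, with CSD1 at 296 and 363 FPKM.

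Mitochondrion-encoded transcripts were higher as well. Of 60 such identifiers listed in any table, 32 were listed higher and 1 lower, with a median of 0.60 against −0.06 in Col-0. Their levels were low, with a median of 0.576 FPKM in the dark and 1.49 in the light over the identifiers with both means. The highest of them, ATMG00030, went from 29.5 to 129 FPKM. The chloroplast-encoded ones leaned the other way: 1 of 66 was listed higher and 10 lower, with a median of −0.35, while in Col-0 18 were listed higher and none lower. In the dark, 62 of the 66 were listed above Col-0 in 35S:miR396a, and none of the 10 that fell was also listed below dark Col-0 after light. ATCG00890 and ATCG01250, counted separately among the 10, have identical values of 2.43 and 0.843 FPKM. The labels describe mRNA libraries, and how fully these hold the transcripts of either organelle was not tested.

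Tau-class glutathione transferases, which attach glutathione to toxic and oxidised compounds, rose for 16 of 29 members, fell for none and had a median of 2.03. GSTU19 went from 552 to 4449 FPKM, the largest rise in FPKM of any listed gene. GSTU25 went from 13.9 to 255, GSTU24 from 28.6 to 301, GSTU5 from 20.1 to 266 and GSTU11 from 0.24 to 12.1. Neighbours rose together on chromosome 2, where GSTU4, GSTU3 and GSTU2 lie in a row (chr2:12626478-12631321), and such tandem copies may share reads. In Col-0 1 member was listed higher and 7 lower, and GSTU19 stood at 471 and 513 FPKM.

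Abscisic acid and desiccation genes rose for 20 of 26 members and fell for none, with a median of 1.94. The dehydrins, which protect membranes and proteins from drying, included LTI30 with 11.4 and 179 FPKM, ERD10 with 41.9 and 205, and COR47 with 167 and 572. Enzymes that make protective solutes rose, GOLS1 of raffinose sugars from 12.1 to 139.5 and P5CS1 of proline from 21.7 to 119. NCED3, the step that limits synthesis of the hormone, went from 10.6 to 28.2, and the phosphatase HAI1, which damps its signal, from 8.27 to 80.7. CYP707A1 and CYP707A3, which break the hormone down, and the factors ABI5 and ABF3 were not listed. In Col-0 3 members were listed higher and 11 lower after light, and 13 were listed below dark Col-0 in dark 35S:miR396a. For HAI1 the level in illuminated 35S:miR396a (80.7 FPKM) was above both Col-0 levels, 38.2 in the dark and 13.7 in the light.

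Jasmonate genes also rose, with 10 of 13 synthesis and response genes and 9 of 12 JAZ repressors listed higher and none of either lower. LOX3, which starts synthesis, went from 0.166 to 3.52 FPKM and AOC3, an allene oxide cyclase, from 8.26 to 29.0. The JAZ proteins hold back the factor MYC2 and are themselves induced by the hormone. JAZ9 went from 5.93 to 39.9 FPKM, JAZ10 from 4.88 to 25.5 and JAZ1 from 20.7 to 68.4. These rises began from low values, since 8 JAZ genes were listed below dark Col-0 in dark 35S:miR396a, and JAZ1 after light (68.4 FPKM) was still under its dark level in Col-0 (219 FPKM). In Col-0 JAZ1 fell to 13.5 FPKM after light, and 8 of 12 JAZ genes fell. For these genes the illuminated level of 35S:miR396a lay between the Col-0 levels in dark and light for JAZ1, JAZ2 (43.8 FPKM, against 107 and 14.9) and JAZ10 (25.5, against 32.4 and 3.44), and above both for JAZ9 (26.7 and 24.2).

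Stress-related transcription factor families followed. In the ERF and DREB family 15 of 37 were listed higher and 3 lower. DREB2A, which links heat and drought responses and switches on HSFA3, went from 7.25 to 122.6 FPKM, and its relative DREB2C from 0.863 to 28.2. The cold-response factors CBF1, CBF2 and DREB1A were not listed, with CBF2 at 8.06 and 5.97 FPKM. Among WRKY factors, which bind defence promoters, 21 of 71 rose and 3 fell, with WRKY46 going from 0.533 to 7.29 FPKM and WRKY40 from 4.76 to 23.59. Among NAC factors 20 of 99 rose and 2 fell. ANAC002 went from 47.5 to 197.6 FPKM, NAC102 from 60.5 to 198.0 and NAC032 from 14.8 to 83.7. Salicylate defence had few listed members, with 1 of 15 listed higher (EDS5) and 2 lower (FMO1 and PBS3). These shares were near the 8.4% and 9.43% of all nuclear genes.

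Light receptors and signalling genes split. Of 36 members 12 rose and 8 fell. Phytochrome A, the receptor for far-red light that is made in darkness and destroyed in light, fell from 351 to 59.3 FPKM, and FHY1 and FHL, which carry it into the nucleus, fell from 35.8 to 9.24 and from 7.42 to 1.24. These 3 fell to like levels in Col-0, where PHYA went from 287 to 53.2. PHOT1, the blue-light receptor of phototropism, went from 95.1 to 11.5 FPKM, against 107 to 48.2 in Col-0. The positive factor HY5 went from 16.9 to 39.5 FPKM in 35S:miR396a and from 60.003 to 19.4 in Col-0, and its homologue HYH from 2.78 to 34.4, having also risen in Col-0. RUP2, which resets the ultraviolet-B receptor, went from 3.53 to 45.7 FPKM.

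B-box proteins modulate HY5, and 8 of them in this list rose. BBX24 went from 62.3 to 208 FPKM, BBX22 from 8.29 to 43.7 and BBX25 from 2.96 to 13.0. BBX30 and BBX31 went from 0.23 to 2.66 and from 0.086 to 1.11, and BBX32, listed at 0 in the dark, was at 3.25 in the light. BBX28 and BBX20 fell, from 50.6 to 21.9 and from 14.72 to 6.42. In Col-0 BBX21, BBX28, BBX29, BBX30 and BBX32 were listed lower.

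PIF factors and shade genes were listed lower for 7 of 12 members and higher for 2. PIF3 fell from 34.8 to 12.8 FPKM, near its fall in Col-0 from 36.4 to 13.8. Several genes activated by PIFs fell by larger factors, PIL1 from 14.8 to 0.8 and the homeobox gene HB2 from 18.6 to 2.92. YUC8, an enzyme of auxin synthesis, went from 17.39 to 3.03, and YUC9 from 1.34 to 0.5. In Col-0 PIL1 fell from 2.56 to 0.9 and YUC8 from 12.6 to 3.77, and HB2 was not listed at 6.70 and 3.77. PIL1 and HB2 were listed above dark Col-0 in dark 35S:miR396a. PIF7 and PIF8 rose, from 0.413 to 2.92 and from 3.51 to 8.16, as they did in Col-0.

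Photosynthesis genes went both ways in 35S:miR396a. Of 25 light-harvesting and protective proteins 8 rose (32%) and 3 fell (12%), against 23 and 0 in Col-0, where the list median was 2.19 and not 0.56. Every member had a mean in both groups, and of all genes with both means 30.3% rose and 33.9% fell. The share that rose was thus near that of such genes and the share that fell was below it, beside 8.4% and 9.43% of all nuclear genes. Protective members that rose included ELIP2, from 8.46 to 87.7 FPKM (35.3 to 99.3 in Col-0), OHP1 from 30.4 to 64.7 and OHP2 from 27.4 to 60.1. PSBS, also protective, was not listed at 177 and 261 FPKM, and rose in Col-0 from 297 to 1746. LHCB1.3 (the gene CAB1), the most abundant transcript of the line's dark seedlings among listed genes, fell from 17768 to 4561 FPKM, while in Col-0 it was not listed at 11174 and 12745. Near-identical LHCB1 copies may share reads. LHCB5, not listed, had 1209 and 705 FPKM, and LHCA3 647 and 452, against 1128 and 3588, and 625 and 2306, in Col-0.

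Carbon fixation genes also went both ways. In the Calvin cycle 3 of 19 members rose (RBCS1B, CP12-2 and FBA1) and 5 fell, with a median of −0.26, against 14 and 0 in Col-0 with a median of 2.07. RBCS1A, a small subunit of Rubisco, fell from 4094 to 1739 FPKM, GAPA from 897 to 429 and PRK from 103 to 45.7. SBPASE, not listed, stood at 77.8 and 62.6 FPKM, against 126 and 530 in Col-0. In photorespiration, which salvages the product of oxygen fixation, 1 of 11 rose, GLDP1, from 39.7 to 151 FPKM, and 8 rose in Col-0. Beside it, 8.4% of all nuclear genes rose in 35S:miR396a, and 30.3% of genes with both means. SHM1, not listed, had 51.5 and 82.0 FPKM, against 91.8 and 641 in Col-0. Of 15 carotenoid genes 2 rose, both in the xanthophyll branch: BCH1 from 33.9 to 72.1 and ABA1 from 12.4 to 32.1. CCD4, which cleaves carotenoids, fell from 5.24 to 1.74. In Col-0 BCH1 went from 32.6 to 68.7, ABA1 from 17.003 to 51.7, and CCD4, not listed there, had 4.25 and 8.26. PSY, the entry step, stood at 28.2 and 30.9 in 35S:miR396a and 43.7 and 173 in Col-0.

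Of 26 tetrapyrrole genes, which make chlorophyll and heme, 1 rose and 4 fell. PORA fell from 160.6 to 10.2 FPKM and PORB from 591 to 112. Both also fell in Col-0, from 849 to 5.93 and from 884 to 418. CHLP, which makes the phytol tail of chlorophyll, went from 814 to 189 FPKM, against 923 and 767 in Col-0, and CHLM from 218 to 94.1, having gone from 172 to 389 in Col-0. Of 10 chloroplast regulators, all with both means, 1 rose and 3 fell (30%), near the 33.9% of all genes with both means that fell. GLK1, a transcription factor that activates chlorophyll and antenna genes, fell from 28.7 to 6.49 FPKM, and was not listed in Col-0 at 18.4 and 22.9. GNC, a GATA factor of greening, fell from 11.7 to 4.35. The sigma factors guide the plastid RNA polymerase. SIG5, a form that is induced by light and stress, rose from 1.09 to 16.02 FPKM, and SIG1 and SIG2, not listed, had 15.3 and 13.0, and 14.8 and 9.96, while both rose in Col-0, SIG2 from 18.5 to 66.6.

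**Figure D4:**
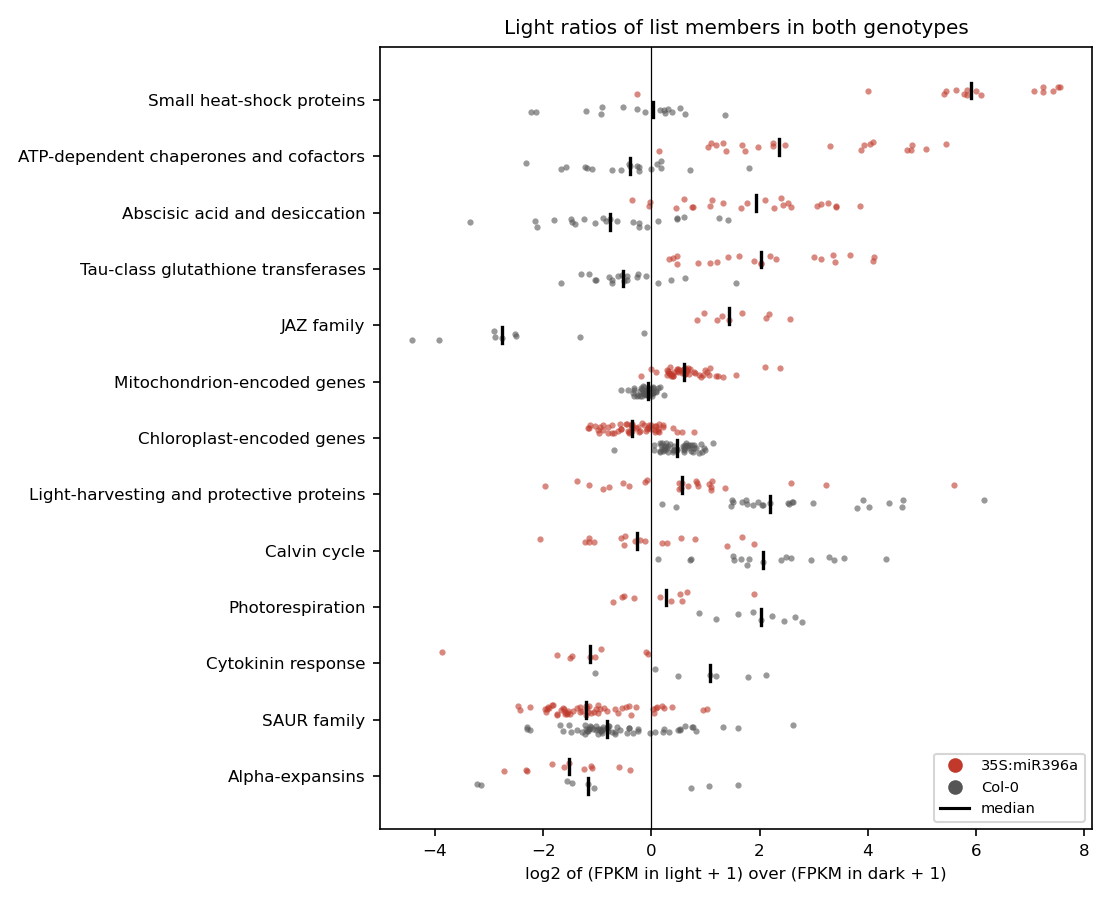
Log2 of (FPKM in light + 1) over (FPKM in dark + 1) for each member with both means in 35S:miR396a (red) and in Col-0 (grey), for 13 gene lists; black bars are list medians. The medians of small heat-shock proteins are 5.92 and 0.02, those of the Calvin cycle −0.26 and 2.07, and those of the SAUR family −1.21 and −0.81.

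Flavonoid genes rose in both genotypes, for 12 of 18 members in 35S:miR396a and 14 in Col-0, with 2 and 0 listed lower. The levels after light were not alike. F3H, an early enzyme of the pathway, went from 1.71 to 66.7 FPKM, near its 58.5 after light in Col-0, and its regulator MYB12 from 0.216 to 6.35. CHS, the entry enzyme, was not listed, with 13.8 and 19.7 FPKM, and reached 326 in Col-0, and FLS1 of flavonol synthesis had 1.73 and 1.85, and 48.3 after light in Col-0. The late anthocyanin genes rose from low values to low values: LDOX from 0.076 to 2.00 FPKM and GSTF12, a carrier of anthocyanin to the vacuole, from 0.046 to 2.56, against 33.1 and 24.4 after light in Col-0. MYB111 and EGL3 fell, from 1.43 to 0.163 and from 0.956 to 0.44.

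HY5 and many other factors bind the G-box, CACGTG, which reads the same on both strands. It was found in 7 of 18 flavonoid promoters (38.9%), 6 of them of genes that rose, against 7.68% of all promoters. Of the 11 without a match 6 rose too. F3H is shown with the G-box in capitals, since it rose most in FPKM in this list.
F3H (chr3:19024942-19025191, plus strand): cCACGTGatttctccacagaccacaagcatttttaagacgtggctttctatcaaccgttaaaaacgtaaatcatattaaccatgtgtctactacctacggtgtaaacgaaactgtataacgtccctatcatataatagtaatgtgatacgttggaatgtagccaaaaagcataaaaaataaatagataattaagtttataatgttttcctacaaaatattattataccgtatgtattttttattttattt

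The SAUR proteins, which keep the proton pump active and so loosen the cell wall, were listed lower for 43 of 80 members and higher for 3 (SAUR48, SAUR59 and SAUR79), with a median of −1.21. SAUR50 went from 28.1 to 6.503 FPKM, SAUR16 from 19.9 to 2.78 and SAUR19 from 6.28 to 0.536. SAUR16 and SAUR50, which respond to light in opposite ways in different organs, were not listed in Col-0, with 11.1 and 19.7, and 23.49 and 33.5 FPKM. SAUR14 was not listed at 22.6 and 15.3, but rose in Col-0 from 16.9 to 108.5. In Col-0 38 members of the family fell and 7 rose, and 27 fell in both.

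The E-box CACATG, a site for PIFs and other helix-loop-helix factors, was searched on both strands. It lay in 33 of 80 SAUR promoters (41.2%), against 12.9% of all promoters, 18.8% of those of genes listed lower and 14.8% of those listed higher. Of those 33 genes 25 fell, 1 rose and 7 were not listed, and of the 47 without a match 18 fell. SAUR genes lie in tandem copies, so these promoters are not independent. SAUR13 went from 3.26 to 0.143 FPKM and is shown with its 3 matches in capitals.
SAUR13 (chr4:18121276-18121525, plus strand): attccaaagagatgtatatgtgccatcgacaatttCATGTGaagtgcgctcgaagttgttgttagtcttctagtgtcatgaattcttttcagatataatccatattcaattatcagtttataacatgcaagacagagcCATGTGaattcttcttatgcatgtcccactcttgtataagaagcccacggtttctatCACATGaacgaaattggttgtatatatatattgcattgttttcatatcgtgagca

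Alpha-expansins, which let wall polymers slide, fell for 9 of 23 members and rose for none, among them EXPA11 from 158 to 23.1 FPKM, EXPA9 from 194 to 54.0 and EXPA1 from 119 to 49.8. EXPA11 and EXPA9 fell in Col-0 too, from 157 to 16.8 and from 166 to 16.9, while EXPA1 rose there, from 48.3 to 148.5. Of 33 XTH genes, which cut and rejoin xyloglucan, 9 fell and 4 rose. XTH17 went from 269 to 46.8 FPKM, XTH4 from 916 to 284 and XTH33 from 19.0 to 1.66. XTH17 fell in Col-0 as well, from 397 to 41.5, and XTH4 (1044 and 578) and XTH33 (18.8 and 11.6) were not listed there. Of 32 genes matched by an IAA symbol or synonym, a set meant for the Aux/IAA repressors of auxin response, 12 fell and 1, IAA28, rose. Such matching also takes in other genes. Among the 12 was AT1G19220 (IAA22, 3.99 to 1.86 FPKM), an auxin response factor and not a repressor of this family. IAA20 went from 23.0 to 1.78 FPKM, IAA6 from 7.83 to 0.903 and IAA4 from 47.1 to 11.7. In the GH3 family, which conjugates auxin and other acids, 4 of 10 fell and 1 rose. The small gibberellin-regulated proteins GASA4 and GASA6 fell from 5807 to 971 and from 326 to 48.4 FPKM. GASA4 also fell in Col-0, from 2390 to 468, and GASA6 rose there from 97.0 to 299. In brassinosteroid synthesis and signalling 2 of 15 members fell, CPD from 178 to 77.9 and BR6OX1, a share of 13.3% near the 9.43% of all genes, and 12 had no value in any table.

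Cytokinin genes fell, for 7 of 16 members and with none listed higher, against 5 higher and 1 lower in Col-0. Type-A response regulators are induced by the hormone and report its signal. ARR16 went from 6.71 to 1.296 FPKM in 35S:miR396a and from 0.823 to 6.88 in Col-0, and ARR7 from 17.84 to 5.62 and from 4.39 to 17.7. The receptors AHK2 and AHK4 fell from 11.8 to 4.84 and from 11.0 to 5.34. CKX5, an oxidase that degrades the hormone, fell from 37.5 to 1.64 FPKM, against 4.39 to 1.63 in Col-0. Against Col-0, 7 members of the list were higher in dark 35S:miR396a and 4 were lower in illuminated 35S:miR396a.

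Clock genes rose for 7 of 20 members and fell for 2, LHY and LNK2, beside 8.4% and 9.43% of all nuclear genes. Of the 7 that rose, 1 was also listed above dark Col-0 after light. ELF4, of the evening complex, went from 8.58 to 132 FPKM, GI from 18.1 to 41.1 and PRR9 from 1.00 to 5.94. LNK1, a coactivator of the morning, went from 4.28 to 20.0 while LNK2 fell from 30.7 to 10.7. In Col-0 ELF4 rose (21.6 to 80.3) and PRR9 fell (9.32 to 1.06), while GI (36.7 and 37.0) and LNK1 (17.3 and 16.2) were not listed. All 4 of these genes were listed below dark Col-0 in dark 35S:miR396a.

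Of 18 dark-induced and sugar-starvation genes 3 rose and 3 fell, 16.7% each way, against none and 10 in Col-0. Beside the counts in this paragraph, 8.4% of all nuclear genes rose in 35S:miR396a and 9.43% fell. Of genes with both means 30.3% rose and 33.9% fell. BCAT2, of branched-chain amino acid breakdown, fell from 118 to 23.3 FPKM and SEN1 from 255 to 39.9, but ASN1, asparagine synthetase, was not listed at 257 and 147 (231 to 28.3 in Col-0), and GDH2, glutamate dehydrogenase, rose from 208 to 432. In seed-oil breakdown ACX1 rose from 140 to 296 FPKM and PCK1 fell from 554 to 257, and both fell in Col-0. No gene of nitrogen assimilation was listed in 35S:miR396a, whereas 6 of 10 rose in Col-0. GS2, which recaptures ammonium in plastids, had 394 and 229 FPKM, and 363 and 1218 in Col-0. In iron supply 3 of 14 fell, among them IRT1, the uptake transporter, from 17.42 to 3.58 and its reductase FRO2 from 3.98 to 0.58. In Col-0 IRT1 also fell, from 8.65 to 3.97, and FRO2 was not listed at 1.72 and 0.86. Both were listed above dark Col-0 in dark 35S:miR396a. In cuticular wax and cutin 3 of 10 fell (CER4, WSD1 and CYP86A4).

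Among 258 cytosolic ribosomal proteins 8 were listed higher and 7 lower, shares below the 8.4% and 9.43% of all nuclear genes. Among 51 genes with a histone term in their product name 3 were listed higher and 2 lower, also below those shares. Those 5 include LEC1, a CCAAT-binding transcription factor subunit (0.01 and 0.116 FPKM), and both that fell, AT2G35170 and AT4G17080, are annotated as methyltransferases of histone H3. Among 30 cyclins, which drive the cell cycle, none was listed higher and 5 lower, 16.7% beside 9.43% of all genes, and 2 of the 5 kept a 2-fold ratio after centring on the median of all genes. The cyclins that fell were CYCA2;3, CYCA3;2, CYCA2;1, CYCD4;1 and CYCD7;1, with CYCA3;2 going from 14.02 to 6.94 FPKM. In glucosinolate and camalexin synthesis 2 of 20 rose and 2 fell, among them PAD3 from 2.24 to 7.72 and CYP71A12 from 17.9 to 5.13. Among senescence genes 1 of 10 rose (SAG13) and 1 fell (SAG21, from 2287 to 1068 FPKM). The shares of both lists were near the 8.4% and 9.43% of all nuclear genes.

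Of 9 seed-reserve genes 7 were listed higher in light and none lower, and their summed level went from 37.0 to 126 FPKM. SESA2, an albumin, went from 2.37 to 24.7 and OLEO2, of oil bodies, from 4.42 to 12.3. Listed higher after light in Col-0 were CRA1, CRU2, CRU3, SESA1, SESA2 and SESA3, with SESA2 going from 0.91 to 2.99. OLEO2 was not listed there, at 0.593 and 0.916. All seed-reserve genes but SESA1 were listed above dark Col-0 in dark 35S:miR396a. Of 9 root markers 1, PYK10, a glucosidase of endoplasmic reticulum bodies in root and hypocotyl, was listed, at 3007 and 6636 FPKM. For the others no pair of values is given. Of 10 shoot-apex and stomata markers 3 fell, all of the stomatal lineage: SPCH from 2.21 to 0.863, FAMA from 3.63 to 0.7 and TMM from 7.56 to 3.24 FPKM. SPCH and TMM rose in Col-0, from 1.00 to 4.37 and from 5.55 to 15.8. The summed level of the 7 members with both means went from 15.8 to 7.16 FPKM, which leaves out STM and CUC1, with dark values only, of 9.996 and 0.906. Hypocotyl tissue has no marker list here, and transcripts of PYK10 and of the apex markers CUC2 and CLV3 were present in both groups. The root markers WOX5, EXPA7 and COBL9 have a value in the light only. The part of tissue makeup in the other results was not tested.

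Beyond the lists, the steepest rises among genes reaching at least 10 FPKM were led by AT1G71000, a DnaJ-domain chaperone, which went from 0.05 to 69.5 FPKM. Of the 15 steepest, 9 were small heat-shock proteins. The others were ELI3-2, an alcohol dehydrogenase of defence (0.036 to 30.4), APX2, a cytosolic ascorbate peroxidase (0.05 to 17.45), NDA1, an internal NADH dehydrogenase of mitochondria (0.033 to 10.4), the transporter ABCG40, which carries abscisic acid into cells (0.103 to 24.3), and the methyltransferase FAMT (0.096 to 22.5). NDA1 also rose in Col-0, to 14.2 FPKM, while ABCG40 had 0.133 and 0.183 there and was not listed.

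The steepest falls included no member of the heat-shock lists. AT3G16670 and its neighbour AT3G16660, which encode proteins with an Ole e 1 domain, fell from 127 to 0.316 and from 148 to 1.85 FPKM, and the defensin-like AT3G05730 from 292 to 2.56. In Col-0 AT3G16670 rose from 5.61 to 12.2, and AT3G16660 and AT3G05730 were not listed. CIB1, a partner of cryptochrome in flowering, fell from 14.2 to 0.333, and the B-box genes BBX17 and BBX23 from 55.1 to 2.18 and from 15.6 to 0.823. In absolute level the largest falls after LHCB1.3 were those of GASA4, CA2, a carbonic anhydrase (2847 to 387 FPKM), and RBCS1A. The largest rises after GSTU19 were PYK10, the membrane protein COR413-PM1 (223 to 3252 FPKM), and GAPC1, a cytosolic glycolytic enzyme (511 to 1802).

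The genes whose light ratio stood farthest above that of Col-0, on the FPKM + 1 scale, included calcium sensors and factors with opposite directions. AT1G76640, a calmodulin-like protein, went from 0.813 to 72.4 FPKM and from 34.9 to 0.166 in Col-0. The glutaredoxin GRX480 went from 2.40 to 54.3 (46.6 to 1.35 in Col-0), and the factor ERF13 from 1.46 to 24.2 (59.6 to 1.25 in Col-0). For CML38, another calcium sensor, the illuminated level of 35S:miR396a, 46.2 FPKM, was below the dark level of Col-0, 83.6. Among genes with a larger mean of at least 10 FPKM, the smallest FPKM ratios of listed genes were those of ABF4 for rises (16.1 and 31.8 FPKM, a ratio of 1.97) and LTO1 for falls (a ratio of 0.541). IGMT3 (10.4 and 20.9) and emb2394 (149.7 and 74.45) had the largest change each way among genes not listed. The smallest deposited log2 fold was 1.0 in size, and for 14 listed genes it lay over 0.58 from the log2 ratio of the FPKM means.

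Other promoter motifs were less uneven between the directions than the heat-shock element. The G-box lay in 15% of promoters of genes that rose, 7.38% of those that fell, and 10% of those that rose in Col-0. In the abscisic acid list it lay in 7 of 26 promoters (26.9%), and in the clock list in 10 of 20. The W-box TTGACC, bound by WRKY factors, was in 17.7% of promoters of genes listed higher, 13.3% of those listed lower and 14.2% of all. The evening element AAAATATCT was in 4.21%, 2.59% and 2.82% in the same order. The telo-box AAACCCTA was in 3.34%, 3.87% and 6.22%, and in 105 of 258 ribosomal protein promoters. All were searched on both strands in the same window, and a match says only that these letters are there.

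**Figure D5:**
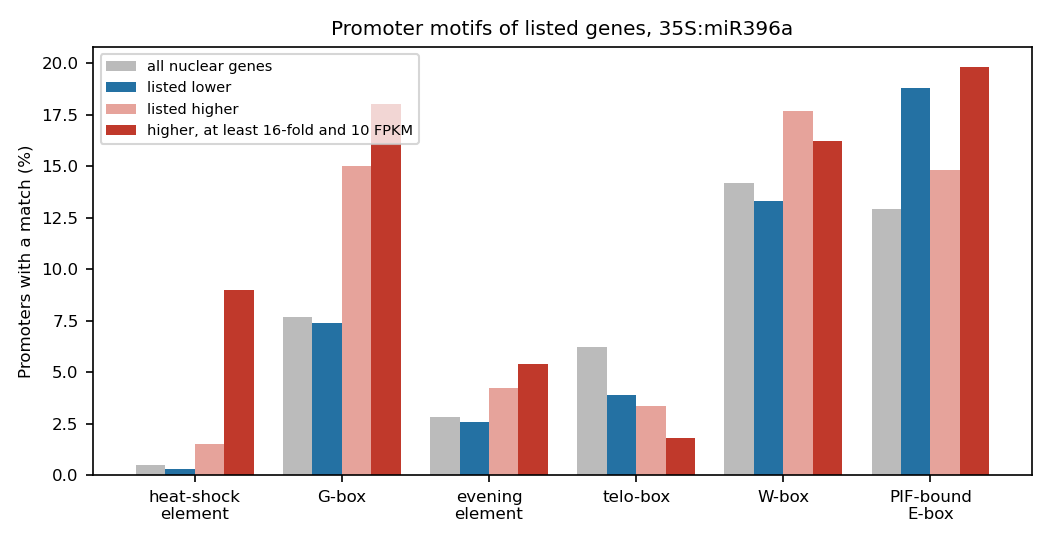
Share of promoters (percent, y axis) with each of 6 motifs for all nuclear protein-coding genes (grey), genes listed lower (blue) or higher (pink) after light in 35S:miR396a, and genes that rose at least 16-fold to at least 10 FPKM (red). The heat-shock element goes from 0.481% of all to 9.01% of the steep risers.

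Gene structure also differed between the directions. Genes without introns made up 25.5% of those listed higher, 19.1% of those listed lower and 19.9% of all, and 36.9% of the steep risers. The median transcript was 1396 bases long among genes that rose and 1802 among those that fell, against 1482 for all. FPKM is scaled by length, but a deposited call rests on reads, which longer transcripts collect more of. The share of genes listed was near even over the chromosomes, between 7.99% and 8.72% for rises and between 8.72% and 9.82% for falls.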

How the data were processed

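RNA from 35S:miR396a seedlings, dark or illuminated, was described beside Col-0. Per the labels, mRNA libraries were sequenced on the BGISEQ-500 platform. The submitters' processing notes name HISAT, Bowtie2 and the genome build TAIR10. Each of 6 deposited tables holds, per the file headers, the mean FPKM of both groups as averaged by the authors, a deposited log2 fold change, and the DEGseq q-value and p-value that the authors deposited. The design text names NOISeq instead, so headers and text differ on the tool. The tables hold called genes only. A group mean was taken from any table that lists the gene, and 0 values differed between tables. Deposited folds and p-values fitted reads pooled over a group. Solved reads were whole within 0.05 for 82.7% of 468 genes with under 60 reads. The light over dark depth ratio, 1.072, was chosen to make this share largest, so the share is a maximum. On this reading the deposited p-values carry counting error only. Simulated p-values came from the same formula that was then inverted, so that run checks the arithmetic and says nothing of the deposited data. No model was fitted and no test was run.

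With Python 3.11.15 and pandas 2.3.3, listed genes were counted by the sign of the FPKM ratio in 46 lists. Of these, 31 hold named members and 15 were matched by annotated symbol, synonym, product name or identifier, which can take in genes outside a family. Members and lists were chosen with earlier results of these data known, and 1 locus (MYB111) was corrected after the files were read. List medians use log2 ratios of FPKM + 1, which understates the change of low genes. Named genes are the 15 largest ratios in each direction with the larger mean at least 10 FPKM and both above 0, the 10 largest FPKM differences, list members, genes nearest the threshold, genes listed at 0 in 1 group, and the 10 largest differences from Col-0. The G-box, E-box, heat-shock element and other motifs were counted in RefSeq TAIR10.1 promoters, and microRNA sites were aligned with edlib 1.3.9.post1 to the first annotated transcript. Of the 4984 identifiers 4893 matched that annotation, and the other 91 are organelle identifiers or new transcripts of the sequencing centre. Alternatives were low-value filters, other folds, scaling, q-value and dark reference.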

Additional observations from a re-analysis of the deposited data

How the results depend on the processing

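The counts of 2352 genes higher and 2632 lower fell to 1390 and 1312 when the larger mean had to reach 5 FPKM, to 1048 and 707 at 4-fold, and to 1504 and 1302 with 1 FPKM added to both means. When a gene also had to be listed the same way against dark Col-0, a group that differs in genotype too, 1606 and 1745 remained. Centring on the median of all genes gave 2348 and 2398. Requiring 30 pooled reads, a choice made after seeing the data, gave 2261 and 2525; genes listed at 0 in 1 group or with a p-value of 0 have no solved reads and were kept. The median log2 ratio of −0.05 was −0.10 with 0.1 FPKM added, −0.02 with 5 added and −0.03 at 5 FPKM or more. Of 72 counts of list members, 53 moved by over 1.5 times at 4-fold, 32 with the dark Col-0 requirement, 10 with a minimum of 1 FPKM and 2 with centring. The 15 small heat-shock proteins were higher under each of these 4. No paired analysis was possible because the tables give group means only, and for the same reason leaving out a replicate was not run. The main limit is that the spread between libraries enters no value here.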

Other observations

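Neighbouring genes moved together in a few places. The longest stretch of adjacent annotated genes that all rose held 7 genes (chr5:8153115-8186704), with WRKY30, the sigma factor gene SIG5 and the squalene epoxidase genes SQP2, SQP1 and SQE6 among them. The longest that fell held 6 genes, AT4G15660 to AT4G15710 (chr4:8925571-8941406), of which AT4G15680, a glutaredoxin-like protein, went from 9.83 to 2.02 FPKM in 35S:miR396a and from 1.52 to 14.3 in Col-0. MSRB3 to MSRB6, methionine sulfoxide reductases that repair oxidised proteins, rose in a row with KEA3 (chr4:2439520-2457767). A row of 4 genes that rose held CYP705A5, CYP708A2 and THAS1 of the thalianol pathway, a triterpene cluster (chr5:19428888-19461706). The peptide genes CLE4, CLE5, CLE6 and CLE7 fell with TCP10 (chr2:13220478-13254859). Copies in tandem can share reads, and whether such rows exceed what neighbours show by chance was not tested.

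Of the new transcripts named by the sequencing centre, 14 were listed higher and 33 lower. Among listed genes, 82 had a dark value of 0 and 41 a light value of 0. Below DIR1, which had the highest light value of the former, came AT1G66100, a thionin, at 5.92 FPKM. Of the latter, CML30, a calmodulin-like protein at 5.996 FPKM in the dark, and HB20, a homeobox gene at 4.06, were also listed at 0 after light in Col-0.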
